A study of Mus musculus with 15 samples.

Results

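The genes described here are 10 components of the unfolded protein response, the programme by which a cell adjusts to misfolded protein in its endoplasmic reticulum (ER). They were chosen by symbol and comprised the ER chaperones *Hspa5*, *Hsp90b1*, *Pdia4* and *Dnajb9*, the ER degradation factor *Herpud1*, the sensor *Atf6*, the transcription factors *Xbp1*, *Atf4* and *Ddit3*, and *Trib3*, a target of the last pair. All 10 were found among the 23699 entries of each expression table, and all 10 were among the 11254 genes tested. RNA was sequenced from 15 libraries of islet cells that had been sorted by flow cytometry for a red lineage label (RFP) and for the fluorescence of Aldefluor, a substrate of aldehyde dehydrogenases (ALDH). Control cells, which the labels call triple heterozygous for FoxO 1, 3, 4, gave 3 ALDH- and 2 ALDH+ libraries, and triple FoxO 1, 3, 4 knockout cells gave 5 ALDH- and 5 ALDH+ libraries. All animals were on a mixed 129J and C57BL/6 background. Recombination was driven by Rip-Cre, which acts in beta cells, in 9 libraries (2 ALDH- control, 1 ALDH+ control, 3 ALDH- knockout and 3 ALDH+ knockout) and by Pdx-Cre, which acts from pancreatic precursors onwards, in 6 libraries (1, 1, 2 and 2 of the same groups). The methods describe islets of several 6-month-old animals per genotype for the Rip-cre sort, without saying how they were divided among libraries, and the controls as littermates lacking either the cre or the floxed alleles, which differs from the label. The age of the Pdx-cre animals is not given in the sources used here. The labels do not say that replicates came from separate animals, so p-values measure the spread between these libraries, which may be technical.

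Beta cells make insulin in the ER in large amounts and are known for relying on this response. A trio of sensors in the ER membrane, IRE1, PERK and ATF6, is held inactive by the chaperone BiP, the product of *Hspa5*. When unfolded protein draws BiP away, IRE1 splices the *Xbp1* transcript, ATF6 is cut to release a transcription factor, and PERK slows translation while favouring that of *Atf4*. XBP1 and ATF6 act on chaperone and degradation genes, and ATF4 acts on amino acid and stress genes such as *Ddit3*, which encodes CHOP, and *Trib3*. Gene-level values of RNA abundance show neither the splicing of *Xbp1* nor the activation of the proteins.

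The sequences through which ATF6 and XBP1 act lie close to the start of some of these genes, and 4 promoters are shown because they differ in that respect. They come from RefSeq (GRCm38.p6, another build than the mm9 of the expression tables), and each gives the 250 bases before the start, with matches to the ER stress response element in capitals. That element, ERSE, was searched as CCAAT, any 9 bases, CCACG, and its variant ERSE-II as ATTGG, any base, CCACG, both on either strand and in windows that also held 50 bases after the start. The first is *Hspa5*, chr2:34771840-34772089 on the + strand, the second *Hsp90b1*, chr10:86705445-86705694 on the - strand, the third *Herpud1*, chr8:94386179-94386428 on the + strand, and the last *Pdia4*, chr6:47813513-47813762 on the - strand.
Hspa5: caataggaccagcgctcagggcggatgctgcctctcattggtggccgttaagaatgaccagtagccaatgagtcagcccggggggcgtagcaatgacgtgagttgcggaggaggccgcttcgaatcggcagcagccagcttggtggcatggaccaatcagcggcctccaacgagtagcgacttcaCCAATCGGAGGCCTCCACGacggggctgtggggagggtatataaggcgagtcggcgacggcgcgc
Hsp90b1: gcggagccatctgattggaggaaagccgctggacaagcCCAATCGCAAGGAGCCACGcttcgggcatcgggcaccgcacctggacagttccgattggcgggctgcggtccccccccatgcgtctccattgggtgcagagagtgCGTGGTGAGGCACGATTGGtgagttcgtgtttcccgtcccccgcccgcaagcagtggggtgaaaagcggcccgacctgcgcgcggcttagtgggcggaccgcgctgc
Herpud1: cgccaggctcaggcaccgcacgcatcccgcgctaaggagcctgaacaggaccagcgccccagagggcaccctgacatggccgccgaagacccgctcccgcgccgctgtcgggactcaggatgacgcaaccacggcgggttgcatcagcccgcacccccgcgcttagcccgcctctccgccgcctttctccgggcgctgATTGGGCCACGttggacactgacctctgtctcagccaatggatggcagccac
Pdia4: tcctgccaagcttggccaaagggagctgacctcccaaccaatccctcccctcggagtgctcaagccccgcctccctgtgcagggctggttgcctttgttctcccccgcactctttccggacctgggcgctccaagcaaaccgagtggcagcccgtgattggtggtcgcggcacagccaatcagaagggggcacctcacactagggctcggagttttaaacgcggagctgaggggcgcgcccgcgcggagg
Only exact matches were counted, so elements that differ from the pattern by a base are left out. *Hspa5* held 1 match to ERSE, 65 to 47 bases before its start. *Hsp90b1* held 2, 212 to 194 bases before its start and, on the opposite strand, 107 to 89 bases before it. *Herpud1* held the ERSE-II, 52 to 42 bases before its start. The *Pdia4* window held no match to either. ERSE was found in 39 of 32851 promoters of the table (0.119%) and ERSE-II in 12 (0.0365%). The C/EBP-ATF response element (TGATG, any base, AA), through which ATF4 and CHOP act, was in 1304 promoters (3.97%), among them *Herpud1* and *Trib3*, and the XBP1 element UPRE (TGACGTGG) was in 222 (0.676%) and in none of the members. None of the members' matches overlapped another. *Atf6* was not in the table, so 9 of the 10 members were searched.

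Values are given in FPKM, fragments scaled by transcript length and by the size of the library, which allows genes to be compared per length. The libraries held 6718758 to 9603926 fragments as estimated from the tables. *Aldh1a3*, the dehydrogenase that the study relates to the Aldefluor signal, ranged from 0.49 to 4.09 FPKM in the 8 ALDH- libraries and from 22.1 to 76.9 FPKM in the 7 ALDH+ libraries. *Foxo1* ranged from 12.0 to 20.1 FPKM in controls and from 0.0925 to 4.24 FPKM in knockout libraries, and *Foxo4* from 0 to 1.34 FPKM and from 0 to 0.0669 FPKM. *Foxo3* ranged from 12.7 to 23.0 FPKM in controls and from 9.78 to 30.6 FPKM in knockouts. *Foxo3* RNA was thus at a like level in the libraries labelled triple knockout (mean 16.9 FPKM, against 17.5 FPKM in controls). Gene-level values do not show whether part of a transcript is missing, so they cannot decide whether the label holds for that gene. Values by exon were not analysed here. Of 9 beta cell markers listed, *Ins1* and *Ins2* had no usable estimate, so the beta cell sums leave out insulin. The sum of the other 7 ranged from 35369 to 127931 FPKM, and that of 4 alpha cell markers from 157 to 35849 FPKM.

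The chaperone genes *Hspa5* and *Hsp90b1* had the highest mean levels of the members. *Hspa5*, at 2:34627609-34632049 in mm9, averaged 1285 ± 302 FPKM (SD, n = 15) and was above 99.9% of tested genes. In ALDH- controls *Hspa5* was at 1137, 1364 and 1453 FPKM and in ALDH+ controls at 1147 and 1619 FPKM. In ALDH- knockouts it was at 1224, 658, 1205, 1520 and 1468 FPKM and in ALDH+ knockouts at 1035, 1228, 920, 1904 and 1396 FPKM. The last library of each control list and the last pair of each knockout list were Pdx-cre, and within each of the 4 groups every Pdx-cre library lay above every Rip-cre library. The lowest value, 658 FPKM, belonged to 1 Rip-cre ALDH- knockout library (replicate 2).

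*Hsp90b1* (10:86153585-86168189) encodes GRP94, the ER member of the HSP90 family, and averaged 1006 ± 134 FPKM (SD, n = 15), within a range of 790 to 1222 FPKM. *Dnajb9* (12:45306883-45311055) encodes ERdj4, a co-chaperone of BiP, and averaged 344 ± 69.1 FPKM (SD, n = 15). *Pdia4* (6:47746139-47763511), a protein disulfide isomerase, averaged 97.3 ± 17.3 FPKM (SD, n = 15). In ALDH- controls *Pdia4* was at 98.1, 109 and 96.3 FPKM and in ALDH+ controls at 75.0 and 106 FPKM. In ALDH- knockouts it was at 86.0, 61.2, 95.2, 125 and 105 FPKM and in ALDH+ knockouts at 85.4, 101, 83.1, 123 and 111 FPKM. The order of libraries is that given for *Hspa5*, and the lowest value was again that of knockout ALDH- replicate 2. *Herpud1* (8:96910399-96919258), which helps clear proteins from the ER, averaged 142 ± 30.7 FPKM (SD, n = 15), with 1 control ALDH+ library at 86.2 FPKM and 1 knockout ALDH- library at 217 FPKM.

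Of the regulators, *Atf4* (15:80085613-80087971) averaged 459 ± 99.3 FPKM (SD, n = 15). In ALDH- controls *Atf4* was at 535, 523 and 551 FPKM, and in ALDH+ controls at 249 and 445 FPKM. In ALDH- knockouts it was at 502, 293, 560, 493 and 600 FPKM, and in ALDH+ knockouts at 471, 421, 354, 479 and 417 FPKM. Knockout ALDH- replicate 2, at 293 FPKM, lay among the ALDH+ libraries, and the other ALDH- libraries, at 493 FPKM or more, lay above all ALDH+ libraries. *Xbp1* (11:5420969-5425875) averaged 235 ± 43.6 FPKM (SD, n = 15). It was at 227, 238 and 315 FPKM in ALDH- controls and at 204 and 226 FPKM in ALDH+ controls. It was at 197, 210, 278, 300 and 302 FPKM in ALDH- knockouts and at 191, 193, 203, 194 and 242 FPKM in ALDH+ knockouts. The 4 highest *Xbp1* values were all from ALDH- libraries, and the others overlapped.

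*Atf6* (1:172634587-172797902) varied least, from 54.0 to 79.4 FPKM, with a mean of 65.1 ± 8.03 FPKM (SD, n = 15). *Ddit3* (10:126727848-126733344) averaged 75.5 ± 17.0 FPKM, from 43.1 to 111 FPKM. *Trib3* (2:152163160-152169796), a pseudokinase, averaged 24.6 ± 5.81 FPKM, from 10.8 to 34.3 FPKM. The lowest values of *Ddit3* and *Trib3* were in the same library, ALDH+ knockout replicate 5, and the estimated fragments behind them, 301 and 211, gave counting errors of 5.77% and 6.88%. By mean level the order was *Hspa5*, *Hsp90b1*, *Atf4*, *Dnajb9*, *Xbp1*, *Herpud1*, *Pdia4*, *Ddit3*, *Atf6* and *Trib3*. Neighbours in this order had overlapping ranges, except that *Hsp90b1* lay above *Atf4* and *Atf6* above *Trib3* in all libraries. Across the 15 libraries the SD of log2 FPKM lay between 0.16 for *Atf6* and 0.39 for *Trib3*, below the median of 0.44 over all tested genes. The members were above 76.3% (*Trib3*) or more of tested genes in mean level, and their SD was not compared with genes of like level.

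**Figure D1:**
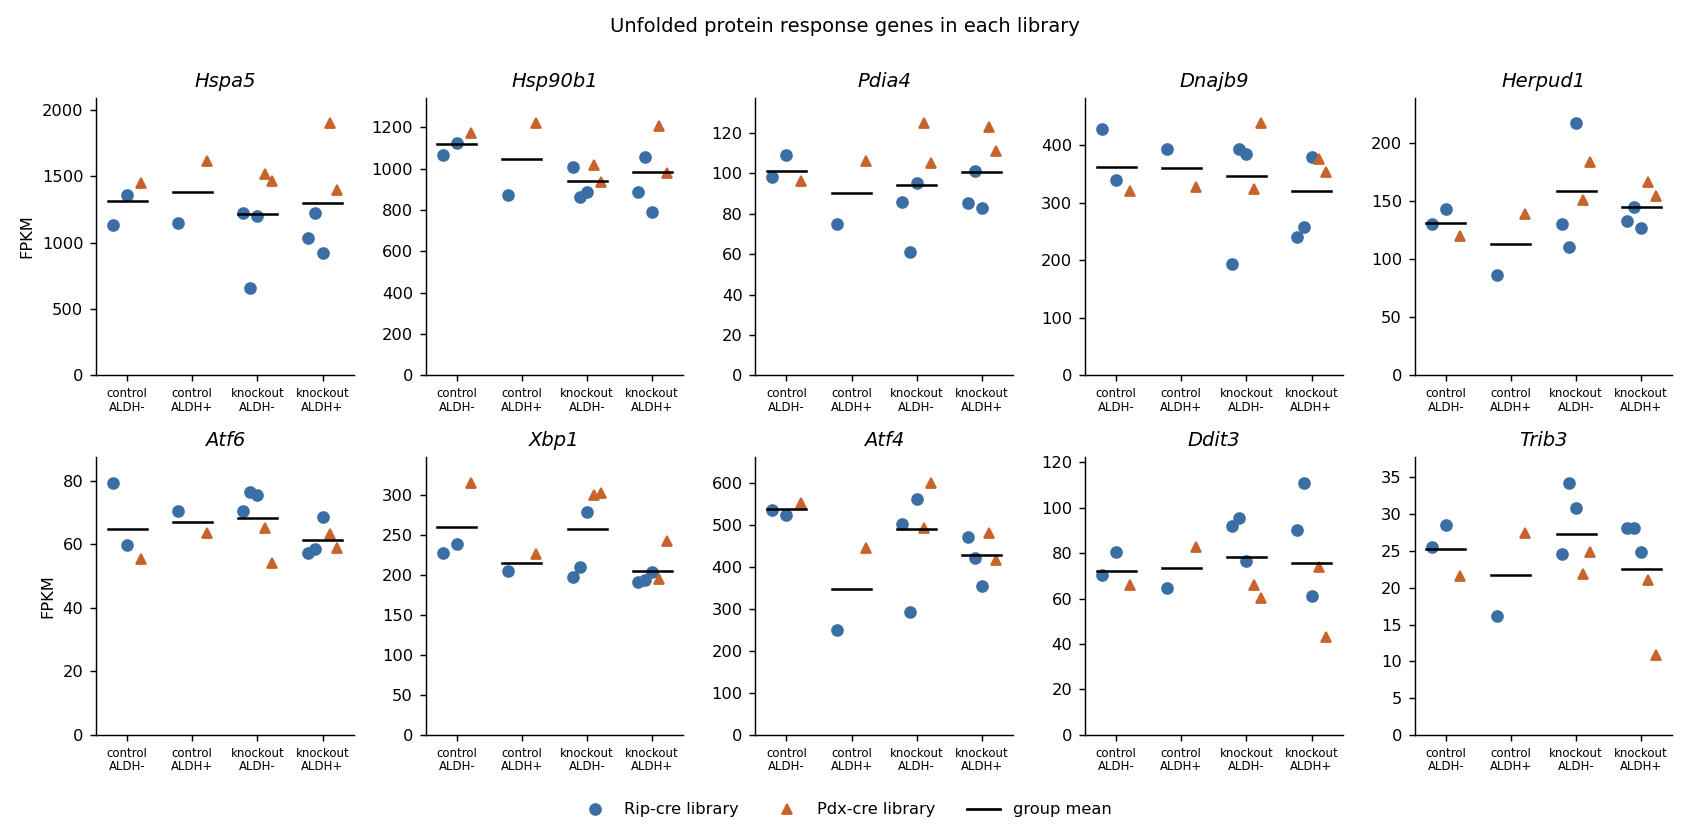
FPKM of the 10 members (one panel each) by genotype and ALDH group, with a circle for each Rip-cre library, a triangle for each Pdx-cre library and a black bar at the group mean. ALDH+ and ALDH- libraries overlap for every member, and the *Hspa5* panel shows the Pdx-cre libraries between 1396 and 1904 FPKM, above the Rip-cre libraries at 658 to 1364 FPKM.

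The first comparison asked whether cells with high ALDH activity, which the study treats as failing beta cells, differ in these genes from ALDH- cells. None of the 10 members passed the threshold (limma, Benjamini-Hochberg adjusted p under 0.05), where 665 of 11254 genes did (5.91%), 2.23% higher and 3.68% lower in ALDH+ cells. *Atf4* and *Xbp1* came nearest, both with the lower mean in ALDH+ cells. *Atf4* averaged 405 ± 80.6 FPKM (SD, n = 7) in ALDH+ and 507 ± 92.9 FPKM (SD, n = 8) in ALDH- libraries, a log2 difference of -0.45 (SE 0.16, 95% interval -0.79 to -0.12, limma adjusted p = 0.1). *Xbp1* averaged 208 ± 19.3 FPKM (SD, n = 7) against 258 ± 46.0 FPKM (SD, n = 8), a log2 difference of -0.32 (SE 0.11, 95% interval -0.56 to -0.08, limma adjusted p = 0.11). These were the 2 members with an unadjusted p under 0.05, which 20.7% of all tested genes had. The study, testing counts in wild-type cells alone, listed *Atf4* as lower in ALDH+ cells past an adjusted p of 0.05. Its network analysis gave ATF4 signalling as inhibited, which the study relates to a decreased unfolded protein response. That test used another model and another set of libraries than the one here. In the fit used here the *Atf4* difference depended on single libraries. Without knockout ALDH- replicate 2 the log2 difference was -0.52 (limma adjusted p = 0.037), and without control ALDH+ replicate 1 it was -0.28 (limma adjusted p = 0.56).

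The remaining members showed log2 differences of -0.26 to 0.03 between ALDH+ and ALDH- cells. For *Hspa5* the estimate was 0.03 (95% interval -0.30 to 0.36, limma adjusted p = 0.95) and for *Pdia4* -0.07 (95% interval -0.32 to 0.18, limma adjusted p = 0.79). For *Ddit3* it was -0.01 (limma adjusted p = 0.98). The interval ends over the 10 members ran from 0.58-fold to 1.28-fold, so larger ALDH differences averaged over the genotypes lay outside the intervals. Taken by genotype they ran from 0.403-fold to 1.57-fold in control and from 0.583-fold to 1.41-fold in knockout cells. The estimate over both genotypes was negative for 9 of 10 members, with a median of -0.07 beside -0.02 over all tested genes. No member had ALDH+ and ALDH- libraries that did not overlap, as 0.675% of all tested genes had.

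Taken by genotype, 0 of 10 members passed in control cells (1.08% of all genes did) and 0 of 10 in Foxo knockout cells (0.0178%). *Atf4* was lower by estimate in both, at -0.77 (SE 0.26, 95% interval -1.31 to -0.22, limma adjusted p = 0.16) in controls and -0.14 (SE 0.18, limma adjusted p = 0.78) in knockouts. The control value rests on 2 ALDH+ libraries, and without the first of them it was -0.42 (limma adjusted p = 0.88). *Xbp1* was at -0.34 (limma adjusted p = 0.44) in controls and -0.29 (SE 0.13, 95% interval -0.57 to -0.02, limma adjusted p = 0.35) in knockouts. The test of the difference between genotypes passed for no member and no gene (0%). An unadjusted p under 0.05 was reached by 1 member in each genotype, *Atf4* in controls (14.2% of all genes) and *Xbp1* in knockouts (13%). For *Atf4* the ALDH difference in knockouts minus that in controls was 0.62 (SE 0.31, 95% interval -0.04 to 1.29, limma adjusted p = 1). In that test between genotypes 0 members and 4.24% of all tested genes had an unadjusted p under 0.05.

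The next comparison set the libraries labelled triple FoxO 1, 3, 4 knockout, in which *Foxo1* but not *Foxo3* RNA was low, against controls within each sorted fraction. In ALDH- cells 0 of 10 members passed (0.0178% of all genes did), with log2 differences from -0.27 for *Hsp90b1* to 0.21 for *Herpud1* and limma adjusted p-values of 0.91 to 0.99. *Hsp90b1* averaged 943 ± 69.0 FPKM (SD, n = 5) in knockout and 1121 ± 53.3 FPKM (SD, n = 3) in control ALDH- libraries. The interval ends ran from 0.639-fold to 1.59-fold over the members. In ALDH+ cells 0 of 10 members passed (0% of all genes did), and the estimates lay between -0.13 for *Dnajb9* and 0.46 for *Herpud1*. *Herpud1* averaged 145 ± 15.6 FPKM (SD, n = 5) in knockout and 113 ± 37.3 FPKM (SD, n = 2) in control ALDH+ libraries (SE 0.22, 95% interval -0.01 to 0.92, limma adjusted p = 0.75). *Atf4* was at 0.42 (95% interval -0.07 to 0.92, limma adjusted p = 0.84) in the same comparison. Interval ends there reached 0.605-fold and 1.89-fold, and neither fraction had a member with an unadjusted p under 0.05, which 5.79% of all genes had in ALDH- and 6.63% in ALDH+ cells.

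Between the cre drivers 2 of 10 members passed and 8 did not, beside 9.83% of all genes. *Hspa5* averaged 1560 ± 184 FPKM (SD, n = 6) in Pdx-cre and 1102 ± 209 FPKM (SD, n = 9) in Rip-cre libraries, a log2 difference of 0.57 (SE 0.15, 95% interval 0.25 to 0.88, limma adjusted p = 0.025), or 1.48-fold. *Pdia4* averaged 111 ± 11.2 FPKM (SD, n = 6) and 88.2 ± 14.5 FPKM (SD, n = 9), a log2 difference of 0.40 (SE 0.11, 95% interval 0.16 to 0.63, limma adjusted p = 0.034), or 1.32-fold. These were the 2 members that passed, both higher in Pdx-cre, where 5.62% of all genes were higher and 4.2% lower. An unadjusted p under 0.05 was reached by 5 members and by 25.7% of all genes. *Hspa5* was the 1 member whose Pdx-cre and Rip-cre libraries did not overlap, as 1.95% of tested genes did not.

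*Xbp1* was at 0.34 (SE 0.11, 95% interval 0.11 to 0.57, limma adjusted p = 0.063), *Atf4* at 0.32 (limma adjusted p = 0.19), *Hsp90b1* at 0.25 (limma adjusted p = 0.18), *Herpud1* at 0.25 (limma adjusted p = 0.27) and *Dnajb9* at 0.17 (limma adjusted p = 0.58). *Atf6* was at -0.14 (limma adjusted p = 0.42), *Ddit3* at -0.30 (limma adjusted p = 0.28) and *Trib3* at -0.29 (limma adjusted p = 0.36). None of these 8 passed. The chaperones, *Herpud1*, *Xbp1* and *Atf4* thus had positive estimates, and CHOP, *Trib3* and *Atf6* negative ones. The median of the members was 0.25 beside -0.01 over all tested genes. Whether the ALDH difference itself differed between the drivers was tested as an interaction, and 0 of 10 members and 0% of all genes passed (at an unadjusted p under 0.05, 0 members and 4.6% of all genes).

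Both calls were thin, and 0 to 3 members passed when 1 library at a time was left out, beside 6.16% to 11.3% of all genes. These fits kept *Hspa5* between 0.48 and 0.61, past the threshold in 11 of 15 cases, with adjusted p-values of 0.024 to 0.059 (limma). The call was lost without control ALDH+ replicate 1 (0.052) or 2 (0.053), knockout ALDH- replicate 5 (0.055) or knockout ALDH+ replicate 4 (0.059). *Pdia4* stayed between 0.34 and 0.48 and passed in 7 of 15 cases (limma adjusted p = 0.029 to 0.085). Its call was lost without either control ALDH+ library, without knockout ALDH- replicate 1, 4 or 5, or without knockout ALDH+ replicate 1, 4 or 5. Within ALDH- libraries alone the *Hspa5* difference was 0.53 (limma adjusted p = 0.25), within ALDH+ libraries 0.61 (limma adjusted p = 0.23) and within Foxo knockout libraries 0.62 (limma adjusted p = 0.13).

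**Figure D2:**
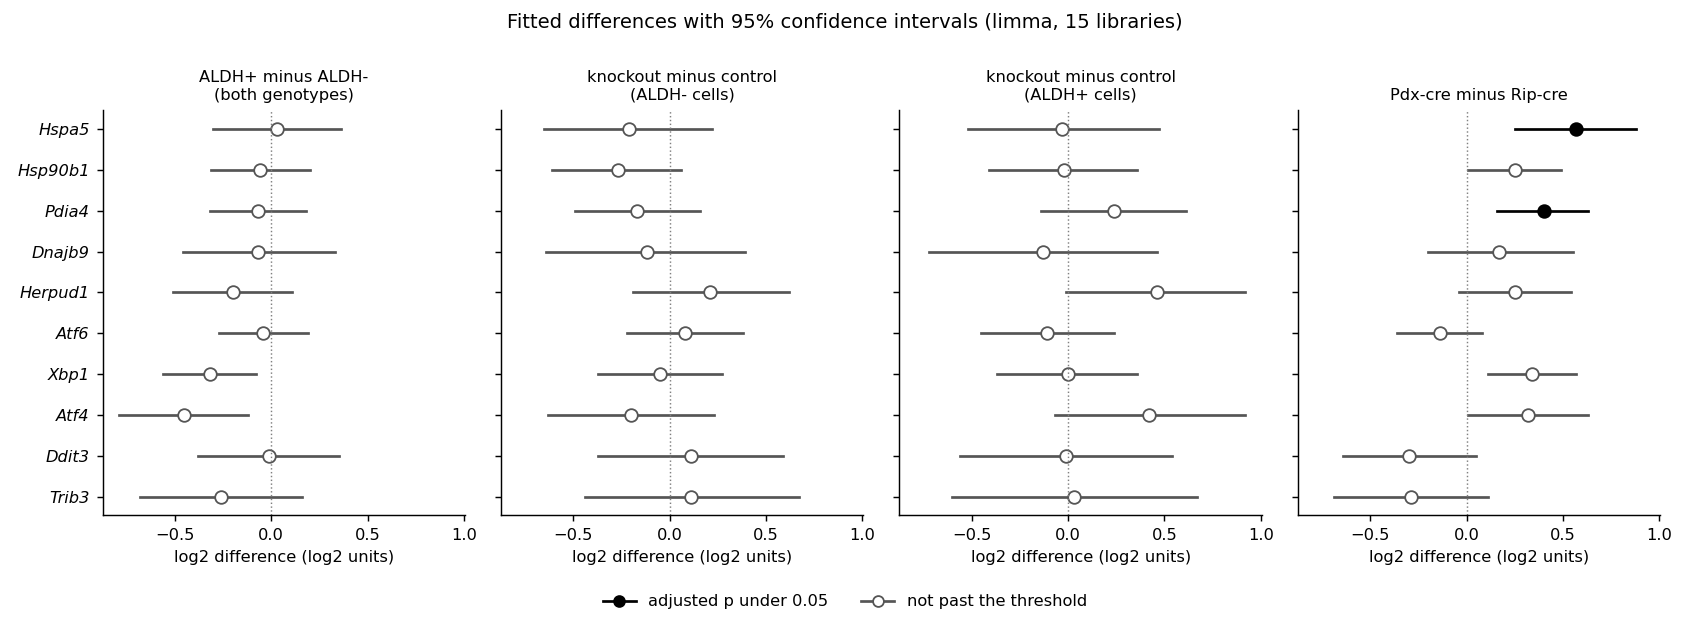
Log2 difference of each member (points) with its 95% interval (lines) for ALDH+ minus ALDH-, knockout minus control in ALDH- and in ALDH+ cells, and Pdx-cre minus Rip-cre. Filled points mark a limma adjusted p under 0.05, which *Hspa5* at 0.57 and *Pdia4* at 0.40 reached in the last panel and no member reached in the others.

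Markers of other cell types differed with the cre driver too. The summed FPKM of 4 alpha cell markers was 157 to 1019 in Rip-cre and 277 to 35849 in Pdx-cre libraries, and that of 8 acinar markers was 0.0576 to 5.14 and 0.285 to 1452, with 6 of the 8 at 0 in most libraries. Delta cell markers summed to 414 to 1298 and 752 to 13646 FPKM, the PP cell marker *Ppy* was at 97.4 to 777 and 127 to 8978 FPKM, duct markers summed to 211 to 456 and 246 to 821 FPKM, and leukocyte markers to 19.7 to 37.8 and 34.4 to 148 FPKM, with 3 of 4 at 0 in most libraries. Endothelial markers reached at most 1.16 and 1.48 FPKM and stromal markers 1.14 and 0.916 FPKM. Beta cell markers, without the insulin genes, summed to 35369 to 127931 and 71476 to 115084 FPKM. Of them *Slc2a2*, *Ucn3*, *Mafa*, *Nkx6-1* and *Pdx1* were lower in Pdx-cre (log2 differences of -2.88, -1.70, -1.24, -1.03 and -0.99, limma adjusted p of 0.022 or less). *Iapp* (0.20) and *G6pc2* (-0.42) did not pass. Fewer cells of a type and less RNA per cell cannot be told apart in these sorted bulk samples, and neither can the driver and any difference in age, cohort or sort that goes with it. The part of other cell types in the *Hspa5* and *Pdia4* differences was not tested. In Pdx-cre ALDH- libraries (control first) *Hspa5* was at 1453, 1520 and 1468 FPKM. Their alpha sums were 35849, 17356 and 9553 FPKM and their acinar sums 24.0, 14.4 and 381 FPKM. In Pdx-cre ALDH+ libraries (control first) *Hspa5* was at 1619, 1904 and 1396 FPKM. Their alpha sums were 5829, 277 and 605 FPKM and their acinar sums 1452, 0.285 and 671 FPKM.

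**Figure D3:**
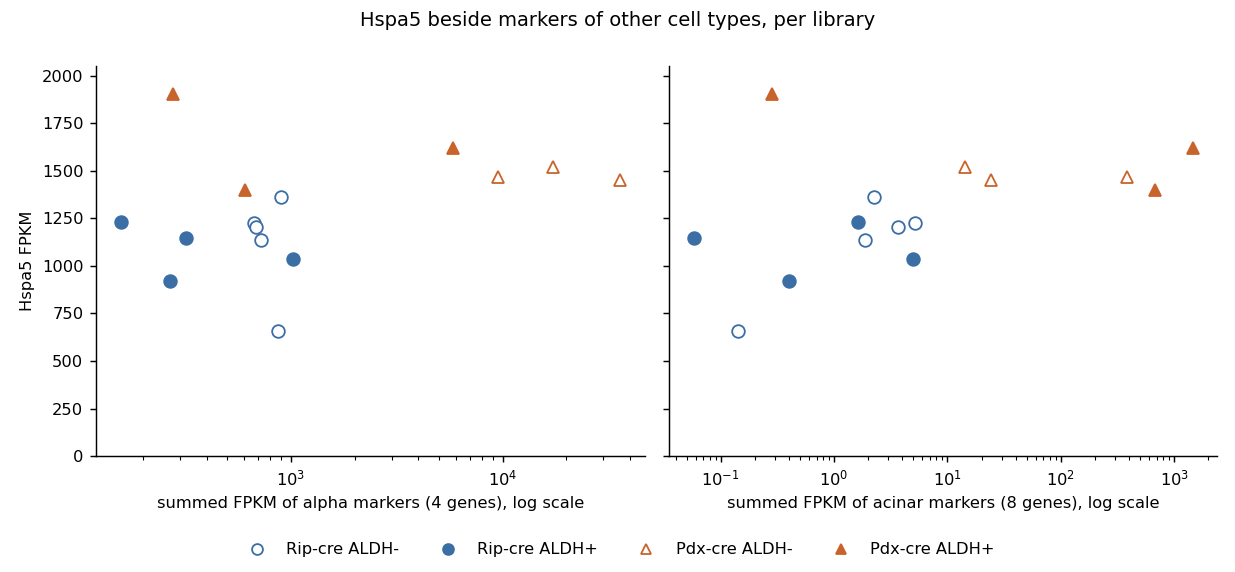
*Hspa5* FPKM of each library against its summed FPKM of 4 alpha cell markers (left) and 8 acinar markers (right), both on log axes, with circles for Rip-cre, triangles for Pdx-cre, and filled symbols for ALDH+. Pdx-cre libraries lie at 1396 to 1904 FPKM of *Hspa5*, with alpha sums of 277 to 35849 and acinar sums of 0.285 to 1452 FPKM. Rip-cre libraries lie at 658 to 1364 FPKM, with alpha sums of 157 to 1019 and acinar sums of 0.0576 to 5.14 FPKM.

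Around the members, 81 other genes of the same processes were listed, of which 80 were tested (*Stc2* was below the expression filter). Between the cre drivers 15 of the 80 passed, 12 higher in Pdx-cre and 3 lower, beside 9.83% of all genes. Of 18 ER chaperone and folding genes, 7 were higher and 1 lower, with a list median of 0.35. *Ero1l*, an ER oxidase, was 2.51-fold higher, at 79.7 to 114 FPKM in Rip-cre and 164 to 319 FPKM in Pdx-cre libraries (log2 difference 1.33, SE 0.17, limma adjusted p = 0.00017). *Ero1lb*, the form of that oxidase enriched in beta cells, was the one that was lower, at 363 to 510 FPKM in Rip-cre and 187 to 313 FPKM in Pdx-cre libraries (-0.61, SE 0.13, limma adjusted p = 0.0088). The pair thus moved in opposite directions, and neither gene's libraries overlapped between drivers.

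*P4hb*, which encodes protein disulfide isomerase, was at 278 to 403 FPKM in Rip-cre and 478 to 609 FPKM in Pdx-cre libraries (log2 difference 0.69, limma adjusted p = 0.00083). *Manf*, a secreted ER stress factor, was higher by 0.59 (limma adjusted p = 0.0034), *Ppib*, a prolyl isomerase, by 0.65 (0.014), *Creld2* by 0.45 (0.032) and *Pdia6*, another disulfide isomerase, by 0.32 (0.042). Of 16 genes of the translocon and signal peptide processing, by which proteins enter the ER, 4 were higher and none lower, among them *Ssr2* (0.59, limma adjusted p = 0.0083) and *Sec61a1* (0.53, 0.0097). Of 17 ER degradation genes, *Edem2* was higher (0.53, limma adjusted p = 0.044). Of 24 genes of the PERK and ATF4 branch, 2 were lower, the mitochondrial folate enzyme *Mthfd2* (-0.62, limma adjusted p = 0.012) and the glutathione-degrading enzyme *Chac1* (-0.57, 0.034). Among 5 sensors and their processing enzymes none passed, the smallest p being that of *Eif2ak3*, which encodes PERK (0.41, limma adjusted p = 0.16). The marker values above moved with these genes as well, and their part was not tested.

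Between ALDH+ and ALDH- cells 10 of the 80 pathway genes passed, 1 higher and 9 lower in ALDH+, beside 5.91% of all genes. Translocon and signal peptidase genes made up 7 of them. *Sec11a*, a signal peptidase subunit, was at 71.4 to 127 FPKM in ALDH- and 48.6 to 84.0 FPKM in ALDH+ libraries (log2 difference -0.63, limma adjusted p = 0.0068). *Sec61b*, a subunit of the translocon channel, was at 243 to 551 and 127 to 290 FPKM (-0.78, limma adjusted p = 0.011). *Ssr2* (-0.67, limma adjusted p = 0.0092), *Ssr4* (-0.60, 0.012) and *Sec61g* (-0.85, 0.029) were also lower, as was *Spcs1* (-0.58, 0.04), which was named after its value was seen. *Sec63*, which couples BiP to the channel, was higher, at 26.2 to 41.8 FPKM in ALDH- and 38.4 to 55.8 FPKM in ALDH+ libraries (0.41, limma adjusted p = 0.036). The ranges of *Sec11a*, *Sec61b*, *Ssr2*, *Ssr4*, *Sec61g* and *Sec63* overlapped between the fractions.

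Outside the translocon, *Sil1*, an exchange factor of BiP, was lower in ALDH+ cells (-0.82, limma adjusted p = 0.034), as were *Atf5*, a transcription factor of the PERK branch (-0.66, SE 0.14, limma adjusted p = 0.014), and *Ddit4*, a stress-induced inhibitor of mTORC1 (-0.86, 0.035). *Atf5* was at 162 to 289 FPKM in ALDH- and 97.0 to 192 FPKM in ALDH+ libraries. No other chaperone gene passed here. The study's count test in wild-type cells alone listed *Sil1*, *Calr*, *P4hb*, *Manf*, *Sdf2l1* and *Pdia6* among the genes lower in ALDH+ cells. In the fit used here, with *Sil1* included, 17 of 18 chaperone genes had negative estimates, with a median of -0.27 beside -0.02 over all tested genes. None of the sensors or degradation genes passed (*Ern1*, which encodes IRE1, 0.31, limma adjusted p = 0.43; *Derl1* -0.24, 0.16). This count rests on 1 library: without control ALDH+ replicate 1, 0 of the 80 passed and 3 of all tested genes did. Alpha cell marker sums were 672 to 35849 FPKM in ALDH- and 157 to 5829 FPKM in ALDH+ libraries, and beta cell marker sums 83988 to 127931 and 35369 to 99455 FPKM, and their part in these differences was not tested.

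**Figure D4:**
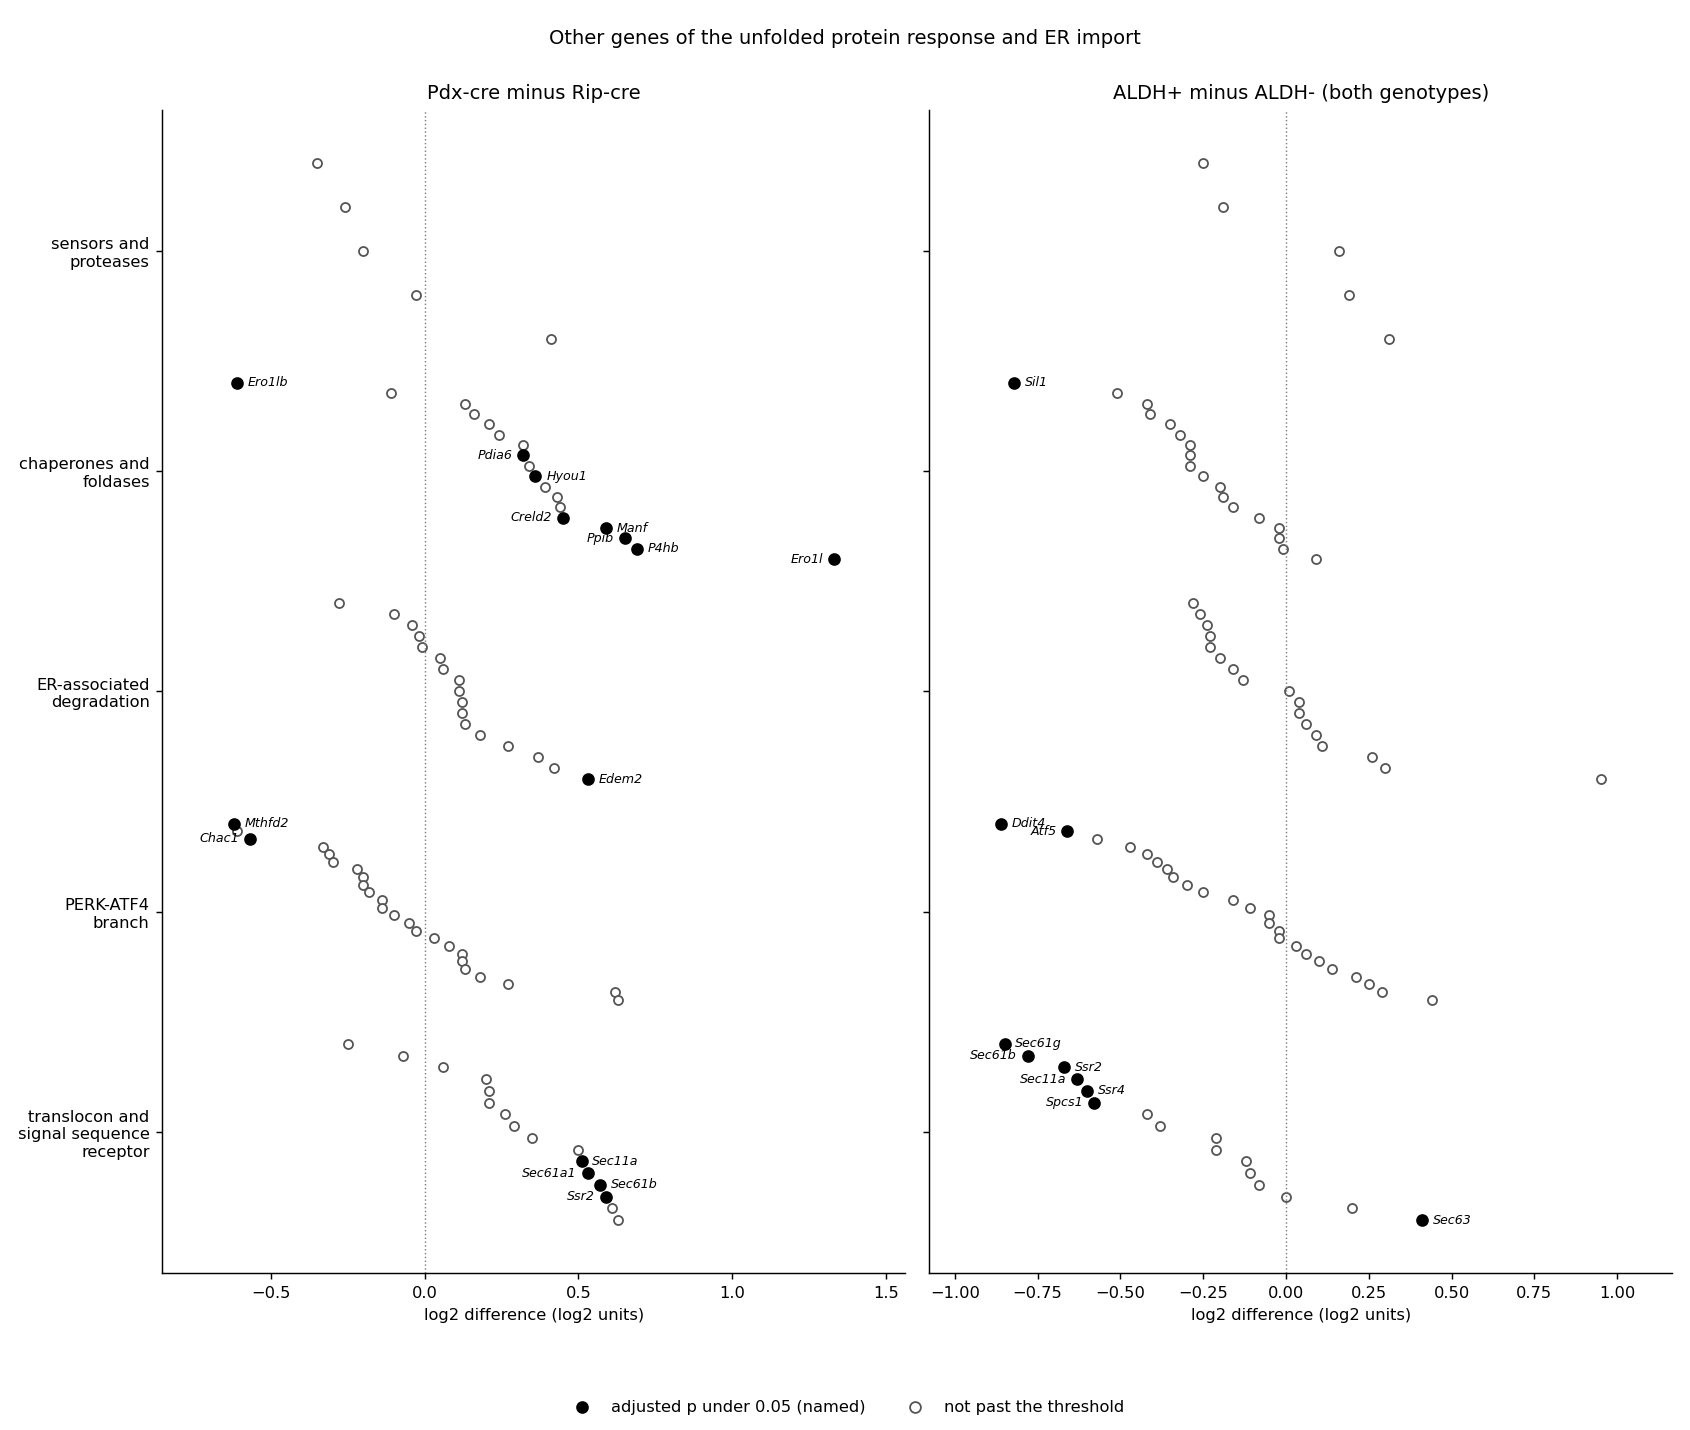
Log2 differences of the 80 tested pathway genes by list (sensors, chaperones, degradation, PERK and ATF4 branch, translocon) for Pdx-cre minus Rip-cre and for ALDH+ minus ALDH-, each point a gene and filled points past a limma adjusted p of 0.05. In the first panel 15 genes are filled, from *Ero1l* at 1.33 to *Mthfd2* at -0.62, and in the second 10 are, of which 9 are lower in ALDH+.

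By genotype, *Ssr4* alone of the 80 passed in the ALDH comparison in control cells (-0.91, limma adjusted p = 0.045), beside 1.08% of all genes. In Foxo knockout cells 0 passed, beside 0.0178% of all genes. An unadjusted p under 0.05 was reached by 22 of the 80 in control and 16 in knockout cells, beside 14.2% and 13% of all genes. The smallest p-values of the lists in knockout cells included those of *Sec11a* (-0.50, limma adjusted p = 0.18) and the degradation gene *Derl3* (1.28, 0.23). For knockout minus control 0 of the 80 passed in either fraction by limma, beside 0.0178% of all genes in ALDH- and 0% in ALDH+ cells. An unadjusted p under 0.05 was reached by 5 of the 80 in ALDH- and 6 in ALDH+ cells, beside 5.79% and 6.63% of all genes. In ALDH- cells the smallest p of the 80 was that of the degradation gene *Ube2j1* (0.42, limma adjusted p = 0.81). *Pdia6* (-0.32, 0.81) and *Nupr1*, a stress-induced nuclear protein (-0.74, 0.81), had the smallest p of their lists. In ALDH+ cells the smallest p of the 80 was that of *Ssr4* (0.58, limma adjusted p = 0.64). The chaperone cofactor *Sdf2l1* (0.52, 0.68) and the translation inhibitor kinase *Eif2ak1* (-0.71, 0.68) had the smallest p of their lists. Neither interaction had a pathway gene past the threshold, beside 0% of all genes. An unadjusted p under 0.05 was reached by 3 of the 80 for genotype by ALDH and 1 for driver by ALDH, beside 4.24% and 4.6% of all genes.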

How the data were processed

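RNA of RFP+ islet cells sorted by Aldefluor signal was sequenced as poly-A libraries. The authors deposited 1 table of FPKM per library, in the Cufflinks column layout. The submitters' processing notes name TopHat2 (version 2.0.4), bcl2fastq (version 1.8.4) and the mouse build mm9; the quantifier's version and the annotation are not given in the sources used here. The study itself tested counts, which are not used here. Lines of 248 symbols listed more than once (712 lines) and 63 lines marked as failed or too deep were left out, which kept 22924 of 23699 entries. How reads shared with near-identical copies were assigned is not given.

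Libraries were put on a common scale by TMM (trimmed mean of log ratios) factors computed without weights (30% of log ratios and 5% of mean levels trimmed), and log2(rescaled FPKM + 1) was fitted with limma (version 3.58.1, R version 4.3.3) with a mean-variance trend, 4 groups of genotype and ALDH, and the cre driver as covariate, over 11254 genes with a mean of at least 1. A fold change on this scale understates that of low genes. Tests were two-sided, with Benjamini-Hochberg adjustment over all tested genes and a threshold of 0.05. The fits were also run on simulated data that held independent noise and no effect of cre driver or library. That run cannot show how calls depend on the driver or on single libraries, and its outcome is not given here. Fragments were estimated from the width of the deposited FPKM intervals. Of the values under 500 fragments, 67.0% fell within 0.02 of a whole number, so they serve as a guide to depth, and the counting errors taken from them cover counting alone.

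The members and gene lists were chosen with earlier results of these data known. All 10 members were named in every comparison. From the pathway lists, the genes past the threshold were named, up to 5 per list and direction by smallest p, or the gene of smallest p where a list had none, and not all of these are printed. The 5 genes most like Hspa5 and Atf4, and Foxo1, Foxo3, Foxo4 and Aldh1a3, were named by rule. Libraries are ordered by replicate number. Replicate numbers were not taken as pairs. Alternatives were other scalings, pseudocounts and filters, a replicate block, each cre driver alone, no cre term, the compared groups alone, removal of a trend with transcript length, and leaving out each library.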

Additional observations from a re-analysis of the deposited data

Results flagged for a closer look

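In the 5 ALDH+ Foxo knockout libraries, *Xbp1* was at 242 FPKM in replicate 5, a Pdx-cre library, while the next highest was at 203 FPKM and the lowest at 191 FPKM. The gap to the nearest library was 0.77 of the whole range, above Dixon's critical value of 0.71 for 5 samples. Of 20 member and group combinations examined this was 1, and chance alone marks about 1 in 20.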

How the results depend on the processing

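Among 2030 recalculated member differences, 2004 kept their direction or lay without a call on either side, 21 lost a call and 5 gained one. Signs changed in 149, in 0 of which either value was called. Members past the threshold between cre drivers numbered 1 with FPKM as deposited and 1 without the expression filter, in place of 2, and 0 to 3 when 1 library was left out. Over all genes 9.5% passed with FPKM as deposited and 5.25% without the filter, in place of 9.83%. *Hspa5* lost its call without the filter (limma adjusted p = 0.091), and *Pdia4* with FPKM as deposited (0.086) and with the length trend removed (0.073), where *Ddit3* passed (-0.57, 0.027). *Xbp1* passed without knockout ALDH- replicate 3 (0.046), knockout ALDH+ replicate 3 (0.048) or knockout ALDH+ replicate 4 (0.40, 0.035). In the fits within knockout, ALDH- or ALDH+ libraries, chosen after seeing the data, 0 members passed in each and 7, 1 and 1 pathway genes passed in place of 15. Over all genes 2.29%, 1.21% and 0.654% passed in these fits, in place of 9.83%. Leaving out 1 library gave 10 to 20 pathway genes between drivers, beside 6.16% to 11.3% of all genes.

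For ALDH in both genotypes, members past the threshold numbered 0 to 1 when 1 library was left out. Pathway genes numbered 6 without the filter, 5 with the length trend removed, 0 without the cre term, 0 in Rip-cre and 0 in Pdx-cre libraries alone, in place of 10, and 0 to 13 with 1 library left out (5 without either control ALDH- replicate 1 or 2). In control cells the 1 pathway gene was lost (0) with FPKM as deposited, median-of-ratios factors, no filter, no cre term, the compared groups alone, the length trend removed and in Rip-cre or Pdx-cre libraries alone, and leave-outs gave 0 to 4. Control ALDH+ replicate 1, without which 0 remained in the comparison over both genotypes, was named above; 4 control-cell genes passed without knockout ALDH+ replicate 3. Over all genes the share called for ALDH in both genotypes was 5.91%. It was 3.12% without the filter, 2.79% with the length trend removed and 1.56% without the cre term. Single-driver fits, with 1 control ALDH+ library each, also called fewer genes. In control cells the share was 1.08%, against 0.862% with deposited FPKM, 1.12% with median-of-ratios factors and 0.555% without the filter. It was 0.0628% with the length trend removed and 0% without the cre term. The causes of these shifts were not tested.

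Same-numbered knockout libraries correlated at 0.238, 0.154, 0.0917, 0.128 and 0.406 in their deviations from the group means, and control libraries at 0.237 and -0.244. The last of these pairs joins a Rip-cre and a Pdx-cre library. In the residuals of the fitted model, which holds the cre driver, the correlations lay between -0.0448 and 0.0699. The labels do not tie the numbers to animals, and they were not taken as pairs. With a replicate block on equal numbers 0 pathway genes passed for ALDH in both genotypes (0.08% of all genes did), and with the block within cre driver 2 passed (2.11%). In control cells 0 passed under both (0% and 0.00889% of all genes). Members stayed at 0 under both blocks. *Atf4* was then at -0.63 (limma adjusted p = 0.26) and -0.45 (0.18). The block could not be fitted for genotype or driver differences, and a single driver gives no driver difference. The count test on estimated fragments was not run, since too few values were whole. Depth limits *Trib3* and *Ddit3* most.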

Other observations

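Across the 15 libraries the log2 values of *Hspa5* and *Pdia4* correlated at 0.89 (Pearson), those of *Hspa5* and *Hsp90b1* at 0.73, *Ddit3* and *Trib3* at 0.78 and *Herpud1* and *Atf4* at 0.74, while *Hspa5* and *Atf6* stood at -0.60 and *Dnajb9* and *Ddit3* at -0.50. These are descriptions over libraries that share groups, cre driver and scaling. The genes outside the members most like *Hspa5* over these libraries were *Rnh1* (0.872), *Cap1* (0.871), *Pfkl* (0.871), *Ftsjd2* (0.863) and *Ttc9* (0.86). Those most like *Atf4* were *Nme2* (0.948), *Ndufa6* (0.934), *2410018M08Rik* (0.933), *Scand1* (0.926) and *Samm50* (0.919).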
